A study of Mus musculus with 8 samples.

Results

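The 10 genes listed here mark endothelial cells: Egfl7, Ehd3, Emcn, Cdh5, Pecam1, Eng, Esam1, Plvap, Nos3 and Sox17. They were followed in glomerular RNA of Cd151+/+ and Cd151-/- mice. Every row of the deposited signal table whose gene symbol equals one of these names was taken. This gave 10 genes and 16 probes, of 18120 gene symbols and 25697 probes in the table. The samples were glomerular isolates of 8 mice, all male, of the FVB/N strain and 3 weeks old, 4 with the genotype Cd151+/+ and 4 with Cd151-/-. Each mouse had its own array, an Illumina MouseRef-8 BeadChip. The labels name no treatment. The isolates were made by perfusing magnetic beads through the heart and digesting the kidneys, after which the glomeruli were washed on a magnet until, by the methods, few other structures remained. They hold all glomerular cell types. CD151 is a tetraspanin that binds laminin-binding integrins and that podocytes use to hold on to the glomerular basement membrane.

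Glomerular endothelial cells line the capillary loops of the filter, are pierced by fenestrae, and share the basement membrane with the podocytes on its other side. Their identity is held by transcription factors such as the ETS and SOX families, by junction proteins that seal cell to cell contacts, and by growth factor signals that come from podocytes. The study asked which transcripts differ in glomeruli that lack CD151, and the endothelial genes answer that question for the cell type across the membrane from the podocyte.

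The isolates carried these transcripts strongly. On all 8 arrays 14 of the 16 probes were detected, at a detection p-value of 0.05 or lower, and every gene had at least 1 such probe. The brightest probe of each gene stood between 2.41 times (Sox17) and 205 times (Egfl7) above the background of its array. The exceptions were Egfl7 ILMN_2631417, detected on 5 arrays, and Sox17 ILMN_2784446, detected on 3. The targeted gene followed the labels: the 3 Cd151 probes were detected on 4 of 4 Cd151+/+ arrays and 0 of 4 Cd151-/- arrays. Arrays fell into 2 sets of 4 by background, each with 2 mice of each genotype. Cd151+/+ mice 1 and 2 and Cd151-/- mice 3 and 4 had a background between 58.5 and 69.2, and Cd151+/+ mice 3 and 4 and Cd151-/- mice 1 and 2 one between 122 and 132. The labels do not say what the sets are.

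Sequence before the start of transcription is shown for 3 of the genes as a description. RefSeq windows on GRCm38.p6 were matched for 4 of the genes, Egfl7, Eng, Emcn and Ehd3, in 6 windows of 250 bases before a start. They were searched on both strands for ACAGGAAG, 8 letters that ETS factors can bind, a motif chosen with the counts known. It lay in 3 of the 6 windows, 2 of Egfl7 and 1 of Emcn, and in 2.9% of all 32851 windows of that length. Capitals mark the match. A match is a string of letters and was not tied to any measurement of binding or of expression.
Egfl7, chr2:26580833-26581082, plus strand: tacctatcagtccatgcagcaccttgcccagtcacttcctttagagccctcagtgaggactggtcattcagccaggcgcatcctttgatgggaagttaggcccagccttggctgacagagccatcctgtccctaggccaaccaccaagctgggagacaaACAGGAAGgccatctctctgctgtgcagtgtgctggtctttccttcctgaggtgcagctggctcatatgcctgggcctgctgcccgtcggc
Emcn, chr3:137340828-137341077, plus strand (match on the minus strand): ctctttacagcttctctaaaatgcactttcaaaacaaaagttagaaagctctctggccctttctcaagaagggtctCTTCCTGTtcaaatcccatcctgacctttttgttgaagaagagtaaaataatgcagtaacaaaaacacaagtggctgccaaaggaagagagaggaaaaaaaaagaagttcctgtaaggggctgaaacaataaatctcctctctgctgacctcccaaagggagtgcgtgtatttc
Ehd3, chr17:73804591-73804840, plus strand (no match): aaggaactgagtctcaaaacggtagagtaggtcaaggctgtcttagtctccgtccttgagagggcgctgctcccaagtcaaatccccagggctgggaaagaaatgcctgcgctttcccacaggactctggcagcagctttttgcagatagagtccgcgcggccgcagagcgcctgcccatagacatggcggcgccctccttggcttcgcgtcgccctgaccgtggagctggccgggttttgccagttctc

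The first match ended 84 bases before the start of Egfl7 and the one of Emcn ended 167 bases before the start that its window precedes. That start lies downstream of chr3:137341062, where the span of Emcn begins. Egfl7 spans chr2:26581083-26592682 and also hosts a microRNA, miR-126a, known for its high level in endothelial cells. The arrays did not measure it. The mature 3′ arm lies at chr2:26591402-26591423 within the span of Egfl7 and is shown with its seed, bases 2 to 8, in capitals.
mmu-miR-126a-3p: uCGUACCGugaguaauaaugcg

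None of the 16 probes differed between the genotypes past Benjamini-Hochberg adjustment (limma, adjusted p between 0.918 and 0.988), while 5 of 14967 tested probes, 0.0334%, did. None reached an unadjusted p of 0.05 either, where 4.3% of all tested probes did, and the lowest was 0.0924 (limma, Ehd3). SAM at an FDR below 0.2 called 0 of the members and 0.608% of all probes. The groups overlapped for all 10 genes, and 2.31% of all probes had groups that did not overlap. Of the 10 genes, 9 had a lower mean in Cd151-/- mice, where 50.9% of all probes had, and the median log2 fold change was -0.29 against -0.01 over all probes. Leaving out 1 mouse moved that median by over 1.5 times in 3 cases, to -0.16 when Cd151-/- mouse 4 was dropped, to -0.45 when Cd151+/+ mouse 4 was, and to -0.57 when Cd151-/- mouse 3 was. Within the lower-background arrays 10 of the 10 genes were lower in Cd151-/- mice, with a median of -0.44, and within the higher-background arrays 8 were, with a median of -0.07. In bulk RNA, fewer endothelial cells and less RNA per endothelial cell cannot be told apart.

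**Figure D1:**
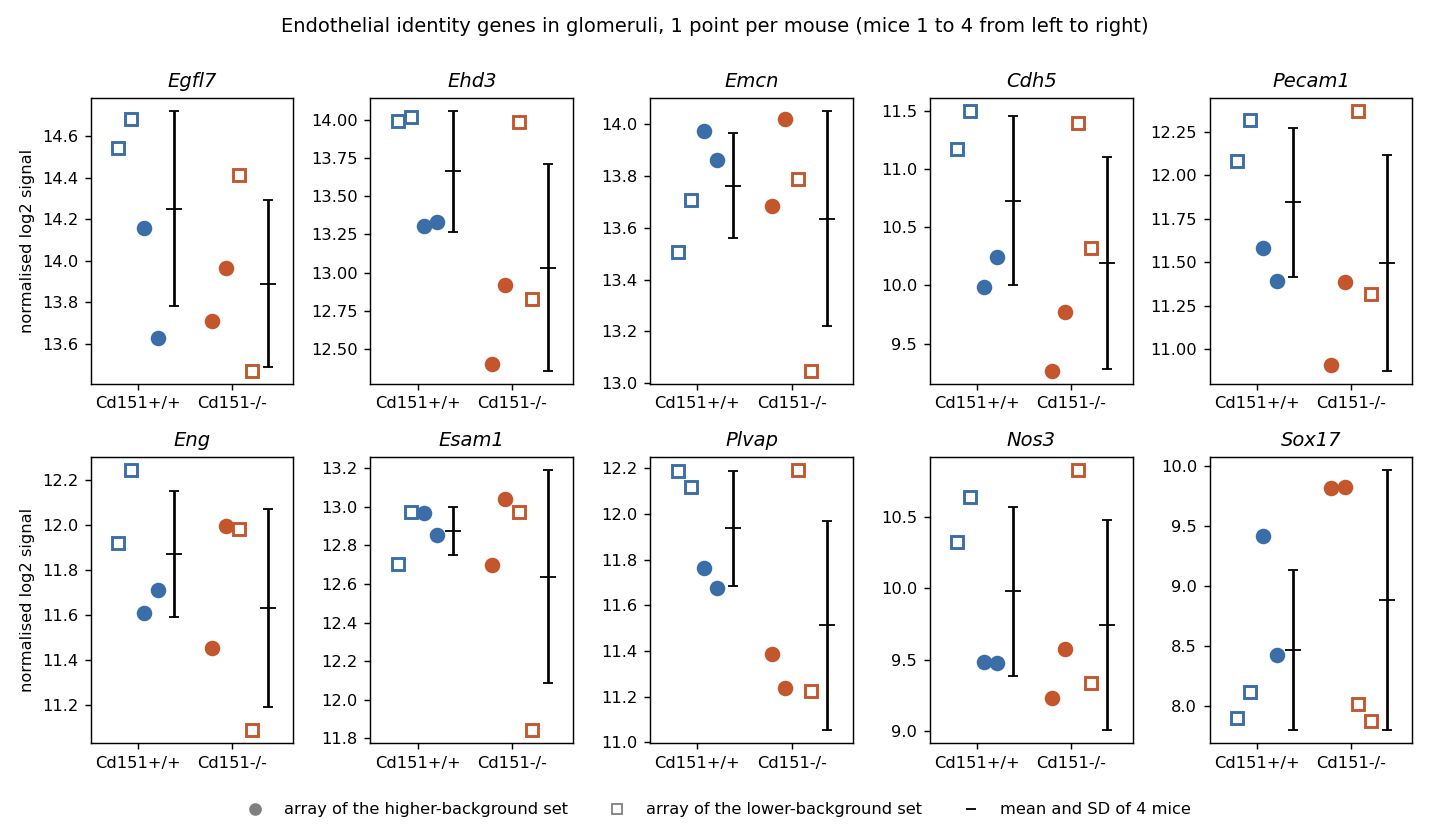
Normalised log2 signal of the brightest probe of each gene (vertical axis, its own range in each panel) in the 4 Cd151+/+ mice (blue) and the 4 Cd151-/- mice (orange), with filled circles for arrays of the higher-background set, open squares for the lower-background set and black bars for the mean and SD. The groups overlap in every panel, and Sox17 alone is higher on all 4 arrays of the higher-background set.

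Of the 10 genes, Ehd3 showed the greatest difference. It encodes an endocytic recycling protein that in the kidney is found in glomerular endothelium. Its normalised log2 signal was 13.99, 14.02, 13.31 and 13.33 in Cd151+/+ mice 1 to 4, and 12.40, 12.92, 13.99 and 12.82 in Cd151-/- mice 1 to 4. In all, 3 of the Cd151-/- mice lay below all Cd151+/+ mice, and Cd151-/- mouse 3 lay among the higher ones. The means were 13.66 ± 0.40 and 13.03 ± 0.68 (SD, n = 4 each), a log2 fold change of -0.63 (95% interval -1.38 to 0.12, limma adjusted p = 0.918, exact permutation p = 0.143, two-sided). The difference was of similar size within the lower-background arrays, -0.60, and within the higher-background arrays, -0.66. With the array set as a block it was -0.63 with an interval of -1.19 to -0.07 and an unadjusted p of 0.0305 (limma, adjusted p = 0.417). It was the only 1 of the 16 probes at an unadjusted p of 0.05 or lower in that fit, against 11.3% of all tested probes. The block was planned with earlier results of these data known. Without Cd151-/- mouse 4 the difference of Ehd3 with the block was -0.40.

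Plvap encodes the protein of the diaphragms that bridge endothelial fenestrae and caveolae, which mature glomerular capillaries largely lose. Its signal was 12.19, 12.12, 11.76 and 11.68 in Cd151+/+ mice and 11.39, 11.24, 12.19 and 11.23 in Cd151-/- mice. As for Ehd3, 3 Cd151-/- mice lay below every Cd151+/+ mouse. Here Cd151-/- mouse 3 had the highest value of the 8. The log2 fold change was -0.42 (95% interval -1.01 to 0.16, limma adjusted p = 0.918).

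Emcn, the sialomucin endomucin of the capillary surface, read 13.51, 13.71, 13.97 and 13.86 in Cd151+/+ mice and 13.69, 14.02, 13.79 and 13.05 in Cd151-/- mice. The single low value, in Cd151-/- mouse 4, set its direction, since the log2 fold change was -0.13 with that mouse and 0.07 without it (95% interval with all mice -0.67 to 0.42).

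Junction genes came next. Cdh5, VE-cadherin of the adherens junction, read 11.18, 11.50, 9.98 and 10.25 in Cd151+/+ mice and 9.27, 9.77, 11.40 and 10.32 in Cd151-/- mice. The values split by array set rather than by genotype, between 10.32 and 11.50 on lower-background arrays and between 9.27 and 10.25 on higher-background arrays. The difference between genotypes was -0.54 (95% interval -1.57 to 0.50, limma adjusted p = 0.918), and with the array set as a block its interval narrowed to -1.09 to 0.02.

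Pecam1, CD31 of endothelial contacts, read 12.08, 12.32, 11.58 and 11.39 in Cd151+/+ mice and 10.91, 11.39, 12.37 and 11.31 in Cd151-/- mice on its brighter probe. Its log2 fold change was -0.35 (95% interval -1.08 to 0.38), and the second probe gave -0.27. Esam1, an adhesion molecule of tight junctions now named Esam, spanned only 12.70 to 12.97 in Cd151+/+ mice. In Cd151-/- mice it read 12.70, 13.04, 12.97 and 11.84, so that only mouse 4 lay outside the Cd151+/+ range by more than 0.1. Its log2 fold change of -0.24 (95% interval -0.84 to 0.37) became 0.03 without that mouse.

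Of the signalling genes, Eng encodes endoglin, a co-receptor for ligands of the TGF-beta family. It read 11.92, 12.24, 11.61 and 11.71 in Cd151+/+ mice and 11.45, 12.00, 11.98 and 11.09 in Cd151-/- mice, a log2 fold change of -0.24 (95% interval -0.82 to 0.34). Egfl7, a secreted protein of the vascular matrix, had 3 probes. The brightest read 14.54, 14.68, 14.16 and 13.63 in Cd151+/+ mice and 13.71, 13.96, 14.41 and 13.47 in Cd151-/- mice. The groups overlapped over most of their range. The brightest probe gave -0.36 (95% interval -1.01 to 0.28) and the second -0.33, whereas the dim probe detected on 5 arrays gave 0.06.

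Nos3 encodes endothelial nitric oxide synthase. Its brightest probe read 10.32, 10.64, 9.48 and 9.47 in Cd151+/+ mice and 9.23, 9.57, 10.83 and 9.34 in Cd151-/- mice. Cd151-/- mouse 3 had the highest value of all 8, and the other Cd151-/- mice were near the lower Cd151+/+ values. The 3 probes gave log2 fold changes of -0.24, -0.06 and -0.23, all with 95% intervals reaching beyond 0.6 above zero.

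Sox17, a transcription factor of arterial and capillary endothelium, was the only gene of the 10 with a higher mean in Cd151-/- mice. It read 7.90, 8.12, 9.42 and 8.43 in Cd151+/+ mice and 9.82, 9.83, 8.01 and 7.87 in Cd151-/- mice. Every array of the higher-background set, 8.43 to 9.83, exceeded every array of the lower-background set, 7.87 to 8.12. The log2 fold change was 0.42 (95% interval -0.70 to 1.53, limma adjusted p = 0.918). Between genotypes it was -0.07 within the lower-background arrays and 0.90 within the higher-background arrays.

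**Figure D2:**
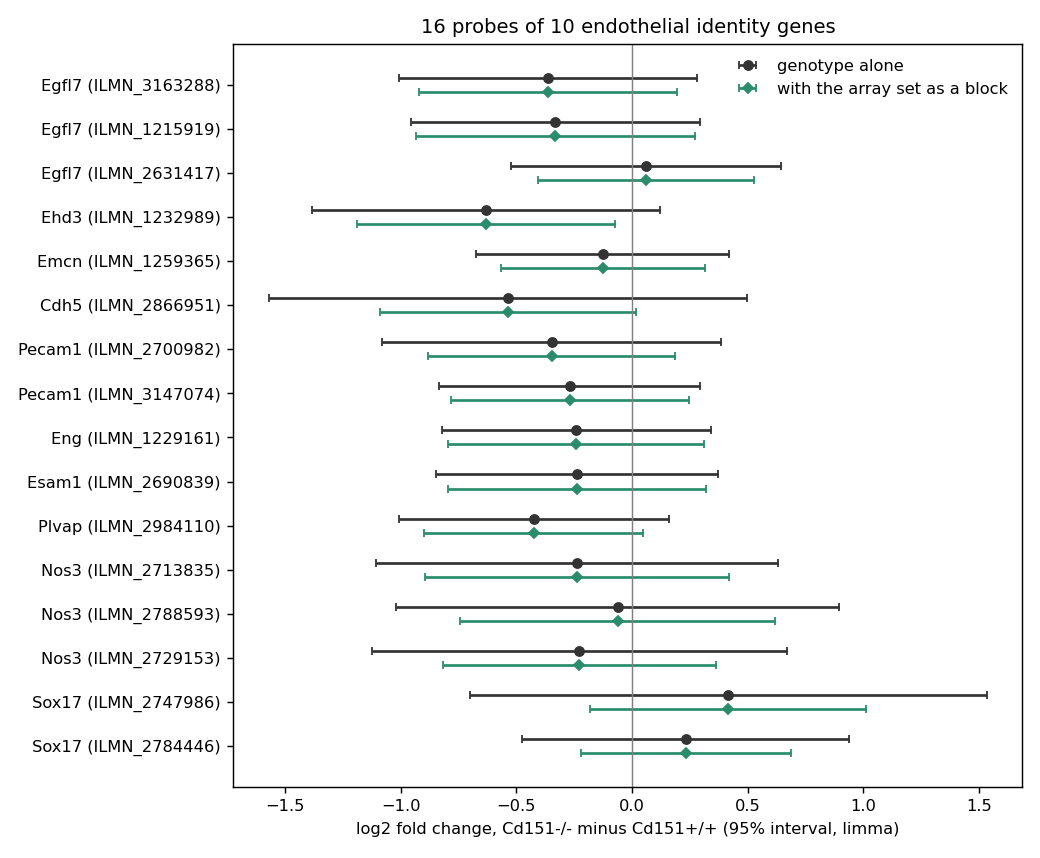
Log2 fold change, Cd151-/- minus Cd151+/+, of all 16 probes with 95% intervals from limma, for genotype alone (grey circles) and with the array set as a block (green diamonds). All intervals for genotype alone include 0, and with the block that of Ehd3, -1.19 to -0.07, does not.

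The genes varied together from mouse to mouse. Over the 8 mice, 26 of 45 pairs had a Pearson correlation above 0.5, with a median of 0.60. When each gene was centred on the mean of its array set, 36 of 45 pairs passed 0.5 and the median was 0.85. These correlations describe 8 mice whose arrays were normalised together and which differed in genotype and in the markers of other cells. The part of each in the correlations was not tested. Ehd3 and Pecam1 reached 0.96 over the 8 mice, and Pecam1 and Nos3 reached 0.97. Emcn and Esam1 were correlated with each other over the 8 mice (0.93), and with Eng at 0.58 and 0.81, but less with Ehd3 (0.11 and 0.39). After centring, both were at 0.85 with Ehd3. Over the 8 mice Sox17 ranged from -0.83 with Cdh5 to 0.60 with Emcn. After centring, its correlations ranged from -0.38 with Cdh5 to 0.28 with Egfl7.

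**Figure D3:**
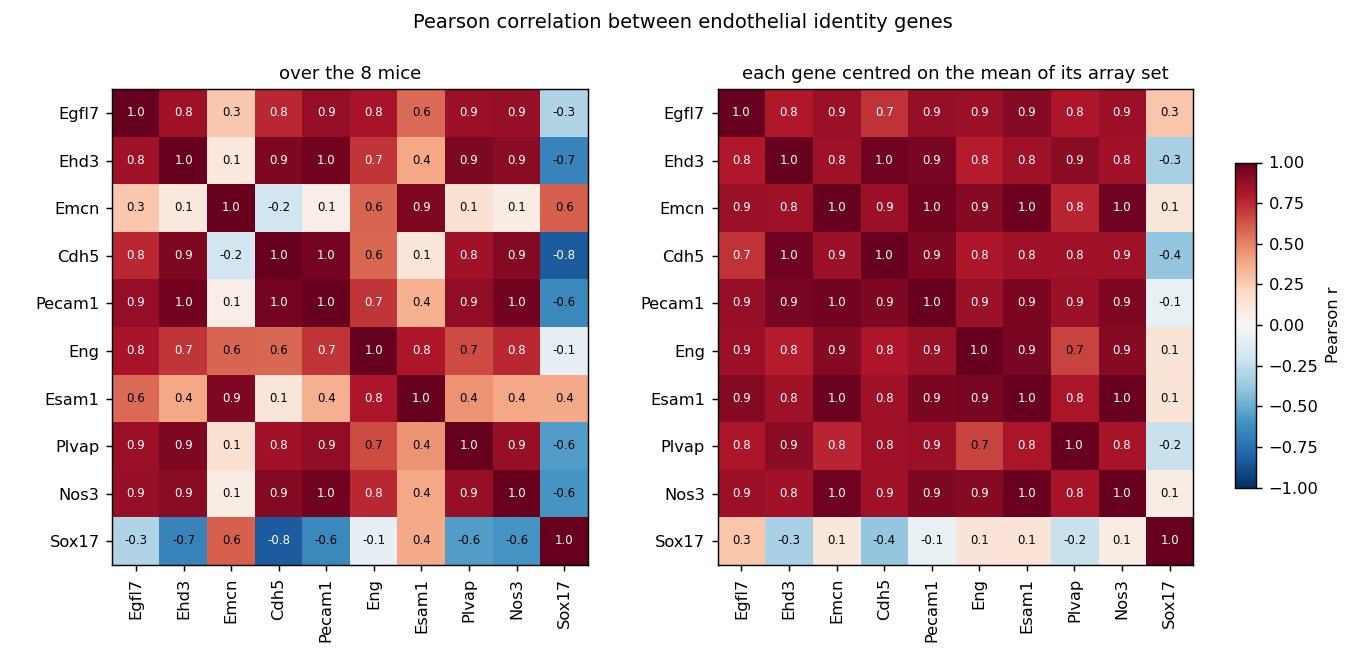
Pearson correlation (colour scale from -1 to 1) between each pair of the 10 genes over the 8 mice (left) and after centring each gene on its array set (right). After centring, 36 of 45 pairs exceed 0.5, and the pairs with Sox17 do not.

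Averaged over the 10 genes, the deviation from each gene's own mean was 0.23, 0.43, 0.02 and -0.14 on the log2 scale in Cd151+/+ mice 1 to 4, and -0.35, -0.03, 0.39 and -0.57 in Cd151-/- mice 1 to 4. The lowest isolate was thus Cd151-/- mouse 4, which held the lowest value of all mice for 6 of the 10 genes, and Cd151-/- mouse 3 was above 3 of the Cd151+/+ mice. The genes outside the 10 whose pattern was most like this mean over the 8 mice were Zcchc9 (r = 0.99), Suhw4 (r = 0.99), S100a16 (r = 0.98), Mysm1 (r = 0.98) and Cmtm7 (r = 0.97). Their Spearman rho ranged from 0.929 to 1, and without the mice farthest from the median, Cd151-/- mouse 4 and Cd151+/+ mouse 2, r ranged from 0.96 to 0.99. Other endothelial genes had a median r of 0.73 with it, against 0.20 over all 7413 genes compared. In this comparison the probe with the highest r, among those detected on all 8 arrays, stood for each gene.

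Among other endothelial genes, 36 of the 46 listed were tested. Of these, 28 had a lower and 8 a higher mean in Cd151-/- mice, with a median log2 fold change of -0.25. Without Cd151-/- mouse 4 the median was -0.15 and 24 were lower. None passed adjustment with limma, and SAM called 1, Dll4, against 0.608% of all probes. At an unadjusted p of 0.05 or lower 2 were lower, Dll4 and Vwf, against 4.3% of all probes in either direction, and 3 had groups that did not overlap, against 2.31%. With the array set as a block, 7 were lower at that unadjusted p, against 11.3% of all probes, and none passed adjustment. Dll4, the Notch ligand of arterial and sprouting endothelium, differed most. Its probe was detected on 4 of 4 arrays of each genotype but was dim, between 1.30 and 3.16 times background. It read 8.01, 8.35, 7.39 and 7.39 in Cd151+/+ mice and 6.13, 6.79, 6.84 and 5.96 in Cd151-/- mice. All Cd151-/- mice lay below all Cd151+/+ mice, by a log2 fold change of -1.35 (95% interval -2.02 to -0.69, limma adjusted p = 0.744, exact permutation p = 0.0286, the smallest that 4 against 4 mice can give).

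Cldn5, claudin 5 of tight junctions, and Gata2, a transcription factor, were the others with groups that did not overlap, at -0.57 and -0.46. Without Cd151-/- mouse 4 these were -0.34 and -0.20. Vwf, von Willebrand factor, was detected on 2 Cd151+/+ arrays and on 0 Cd151-/- arrays. Its normalised log2 signal was 7.15, 5.73, 5.32 and 5.11 in Cd151+/+ mice. Their mean, 5.83, includes arrays that did not detect it. The lowest detected level averaged 5.34 over the Cd151-/- arrays, above the lower 2 Cd151+/+ values. The size of its difference is therefore not known, not even as a bound (limma log2 fold change -0.90, adjusted p = 0.918). The remaining named genes were Klf2, a flow-responsive factor (-0.81, and -0.34 without Cd151-/- mouse 4), Nr2f2, a venous factor (-0.68), Ephb4, a venous receptor (-0.65), and Mmrn2 (-0.59), each with groups that overlapped.

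Markers of other cells also varied between the mice, not all in the same direction as these genes. In Cd151-/- mouse 4 the podocyte list (9 genes tested) averaged -0.66 and the mesangium and smooth muscle list (10 genes) -0.70, the lowest of all mice for both, while the proximal tubule list (13 genes) averaged 1.21, the highest. Over the genotypes, podocyte means ranged from 0.08 to 0.17 in Cd151+/+ mice and from -0.66 to 0.27 in Cd151-/- mice. All 9 podocyte genes had lower means in Cd151-/- mice, with a median of -0.22, and without Cd151-/- mouse 4 this was 7 of 9 with a median of -0.13. Of the mesangium and smooth muscle genes 6 were lower and 4 higher, with a median of -0.12, which was 0.16 without that mouse. Proximal tubule means ranged from -0.89 to 0.20 and from -0.15 to 1.21, with 12 of 13 genes higher and a median of 0.61. The median was 1.30 within the lower-background and 0.03 within the higher-background arrays. Without Cd151-/- mouse 4 it was 0.43, with 1 of the 13 genes lower. Slc22a8, an organic anion transporter of the proximal tubule, was higher in all Cd151-/- mice than in any Cd151+/+ mouse (1.45, limma adjusted p = 0.744), and was detected on 1 Cd151+/+ array. SAM called it, against 0.608% of all probes. The part of tubule and of the other glomerular cells in the endothelial differences was not tested. Without Cd151-/- mouse 4, 7 of the 10 endothelial genes were lower in Cd151-/- mice, and with the array set as a block as well 6 were, with a median of -0.06.

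**Figure D4:**
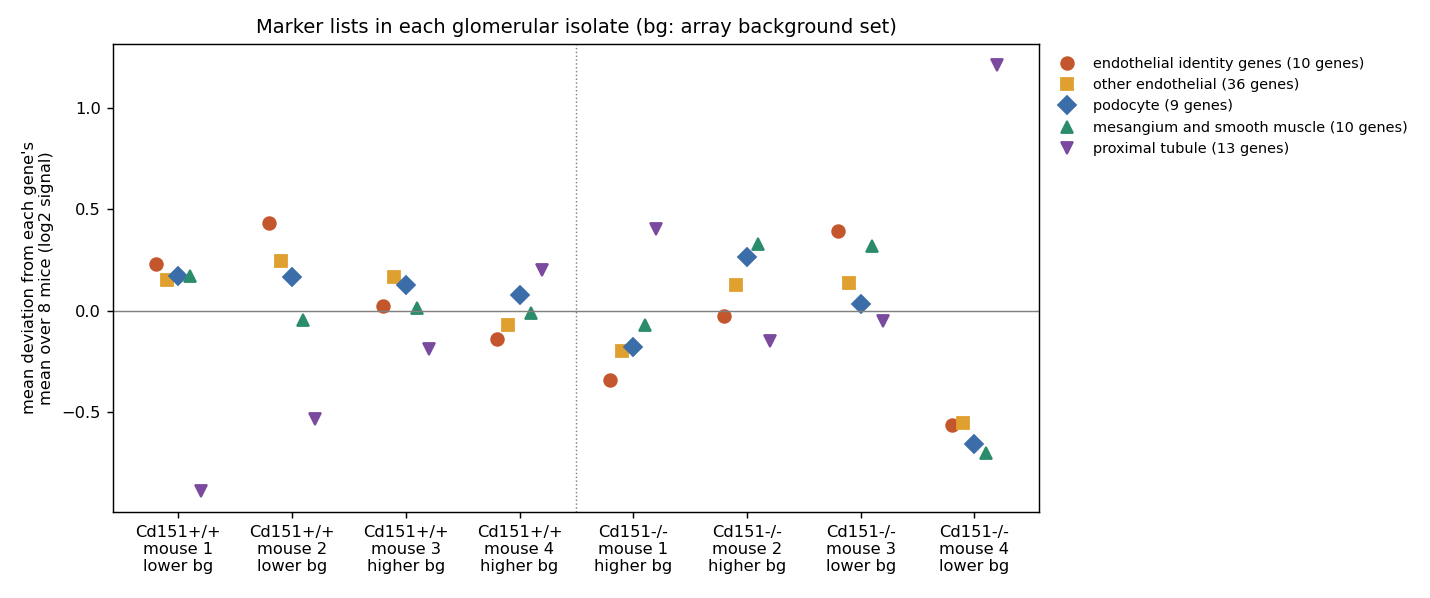
Mean deviation of each marker list from its genes' means over the 8 mice (vertical axis, log2 signal) in each isolate, with the array set named under each mouse. In Cd151-/- mouse 4 the endothelial, podocyte and mesangial lists lie lowest and the proximal tubule list, at 1.21, highest.

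Blood cells were followed as further sources of RNA. The 6 platelet genes tested had a median log2 fold change of -0.25. Clec2, a platelet receptor also named Clec1b, was lower in all Cd151-/- mice (-0.75, limma adjusted p = 0.918) and was detected on 2 of the 4 Cd151-/- arrays. The groups barely parted, at 5.779 in Cd151-/- mouse 1 against 5.781 in Cd151+/+ mouse 4. Its signal was 0.97 to 1.56 times background. The 5 erythroid genes had a median of -0.58, which was -0.19 without Cd151-/- mouse 4. Of these, 2 were lower at an unadjusted p of 0.05 or lower (limma), against 4.3% of all tested probes in either direction. They were Hba-a1, a haemoglobin gene (-0.69), and Alas2, of erythroid haem synthesis (-2.57), which SAM also called. Both are named for these counts, after their values were seen. Hbb-b1 was detected on 1 Cd151-/- array only, and Hbb-b2 on 2 Cd151+/+ arrays and 1 Cd151-/- array. At that p the other lists held 2 higher proximal tubule genes, 1 lower platelet gene, and 1 lower and 1 higher mesangium and smooth muscle gene. The 6 leukocyte genes had a median of 0.02, and none of the blood cell genes passed adjustment with limma. Of the 11 leukocyte markers in the signal table, Ptprc, Itgam, Emr1, Fcer1g and Cd79a were detected on no array. Cd68, Laptm5 and Cd3e were detected on all 8.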

How the data were processed

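Per the labels, RNA of glomerular isolates was amplified, biotin-labelled and hybridised to Illumina BeadChips. The authors deposited signal intensity, the mean bead brightness of each probe, neither background-subtracted nor normalised, and, for every signal, a detection p-value. GenomeStudio is named in the submitters' processing notes, without a version. In R 4.3.3, limma 3.58.1 inferred each background from the detection p-values, applied neqc (offset 16, quantile) and fitted the genotypes across the 14967 probes that at least 1 array detected at p of 0.05 or below. P-values were adjusted over these by Benjamini-Hochberg. Exact permutation tests over 70 relabelings were two-sided.

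The probe with the highest mean over the 8 mice stood for a gene in counts. Named were Cd151, all 10 genes, other endothelial genes at an unadjusted p of 0.05 or lower, with groups that did not overlap or, of those detected on all 8 arrays, the 5 with the largest difference, genes of other lists whose groups did not overlap, and the 5 genes most like the mean of the 10. The genes and lists (endothelial, podocyte, mesangium and smooth muscle, proximal tubule, leukocyte, erythroid and platelet) were chosen with earlier results of these data known. The block by array set was planned because of them. Mouse numbers did not pair the samples (r of -0.58, -0.40, -0.53 and -0.01). The fits were tested on simulated data. The number of arrays limits the precision.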

Additional observations from a re-analysis of the deposited data

Results flagged for a closer look

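In 4 of 52 groups of 4 mice 1 mouse stood far from the other mice, where chance gives about 1 in 20 groups. The gap to the nearest mouse, as a share of the range of the group, was 0.833 for Plvap, 0.845 for Nos3 (ILMN_2788593) and 0.933 for Mmrn2, each with Cd151-/- mouse 3 above the other Cd151-/- mice. It was 0.895 for Gata2, with Cd151-/- mouse 4 below the others.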

How the results depend on the processing

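No endothelial identity probe passed adjustment in any of the settings run, and the lowest adjusted p was 0.0885, with array weights. At an unadjusted p of 0.05 or lower there were 0 of the 16 probes, 1 with the array set as a block, 9 with array weights and 0 to 4 with 1 mouse left out. The 4, without Cd151-/- mouse 3, were probes of Ehd3, Cdh5, Pecam1 and Plvap. Over all tested probes the share at that p was 4.3%, 11.3% with the block, 32.2% with array weights, and 2.36% to 9.41% with 1 mouse left out, the highest without Cd151-/- mouse 3. Genes whose groups did not overlap numbered 0 to 3 with 1 mouse left out, the 3 without Cd151-/- mouse 3. The share over all probes was not computed with a mouse left out, so these counts have nothing to be set against. The median was -0.63 with array weights. Of other endothelial genes, 2 reached that p. It was 1 with 75th percentile scaling (2.6% of all tested probes) and 1 with detection on all 4 arrays of a group (5.17%). With the equal-variance test it was 1 (4.12%), and with a trended and robust variance 4 (4.06%). It was 7 with the array set as a block, 18 with array weights and 1 to 8 with 1 mouse left out. The 8 were again without Cd151-/- mouse 3. With the mouse number as a replicate block it was 1, and over all probes 420 reached it against 643.

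The sign turned for Emcn with the cubic spline (0.049) and array weights (0.036). A further setting, with the array set as a block and without Cd151-/- mouse 4, was chosen after seeing the data. There 4 of the other endothelial genes reached that p, against 8.7% of all tested probes. In this setting the sign turned for Emcn (0.034), Esam1 (0.028) and the Nos3 probes (0.092, 0.29 and 0.055). With 1 mouse left out it ranged from -0.26 to 0.069 for Emcn, -0.37 to 0.029 for Esam1, -0.43 to 0.22 for Nos3 ILMN_2788593, -0.54 to 0.046 for Nos3 ILMN_2729153, -0.13 to 0.19 for Egfl7 ILMN_2631417 and -0.026 to 0.45 for Sox17 ILMN_2784446. The cause was not tested. The signal of detected probes, 3.02 to 4.56 times background at the median, limits what dim probes can show.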
